A study of Homo sapiens with 4 samples.

Results

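Mesenchymal and extracellular matrix genes were followed in MDA-MB-231 and T-47D, 2 lines of human breast cancer cells. The set holds 42 genes, listed by name for their roles in connective tissue cells, matrix and epithelial-mesenchymal transition, of 19775 genes with a probe set that names them alone on the array. The list was drawn up with earlier results of these data known. Each gene was read by the brightest such probe set. RNA came from MDA-MB-231 cells, a triple negative line, given 100 μM JPH203 for 24 h, from MDA-MB-231 cells given Captisol at that dose and for that time as the control, from T-47D cells, an estrogen receptor-positive luminal line, given 100 μM JPH203 for 24 h, and from T-47D cells given Captisol in the same way. JPH203 blocks LAT1, a transporter that brings leucine and other large neutral amino acids into cells, and Captisol is a modified cyclodextrin. The study set the lines side by side because their growth was not equally sensitive to JPH203. Each line is a single established culture grown without other cell types, and each of the 4 groups was 1 Affymetrix U133 Plus 2.0 array.

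Mesenchymal cells hold a vimentin skeleton, crawl, and lay down the matrix around them. In epithelial cells that take on this state, factors of the ZEB and SNAI families repress epithelial genes such as CDH1, while matrix proteins, the enzymes that crosslink them and the proteases that cut them are switched on. The cytokine TGF-beta drives this state and is itself stored in the matrix, bound to latency proteins. Triple negative lines of the MDA-MB-231 kind are widely used as models of mesenchymal breast cancer, and T-47D as a model of luminal, epithelial breast cancer.

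A gene was counted as on in a line when both arrays of that line gave it 100 or more, and as off when both gave it less. By this measure 33 of the 42 genes were on in MDA-MB-231 cells, where 34.3% of all genes were on, and 6 were on in T-47D cells, where 32.4% of all genes were on. The state that described most of them was on in MDA-MB-231 cells and off in T-47D cells, with 27 genes (64.3% of the 42), a state shared by 5.4% of all genes. None was on in T-47D cells and off in MDA-MB-231 cells, a state of 4.98% of all genes. Because the set was chosen with earlier results of these data known, these shares describe it and do not test it. A further 5 genes were on in both lines, 8 were off in both (56.6% of all genes were off on all 4 arrays), and THBS1 and LTBP1 crossed the minimum on 1 of the 2 arrays of a line. The count of 33 depended on reading the brightest probe set, and was 21 when the probe sets of each gene were averaged and 14 of 38 with the second brightest. In bulk RNA of a line, fewer cells with a transcript and less of it per cell cannot be told apart. No array was repeated, so the differences below carry neither an error nor a p-value and were not checked on a second sample.

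**Figure D1:**
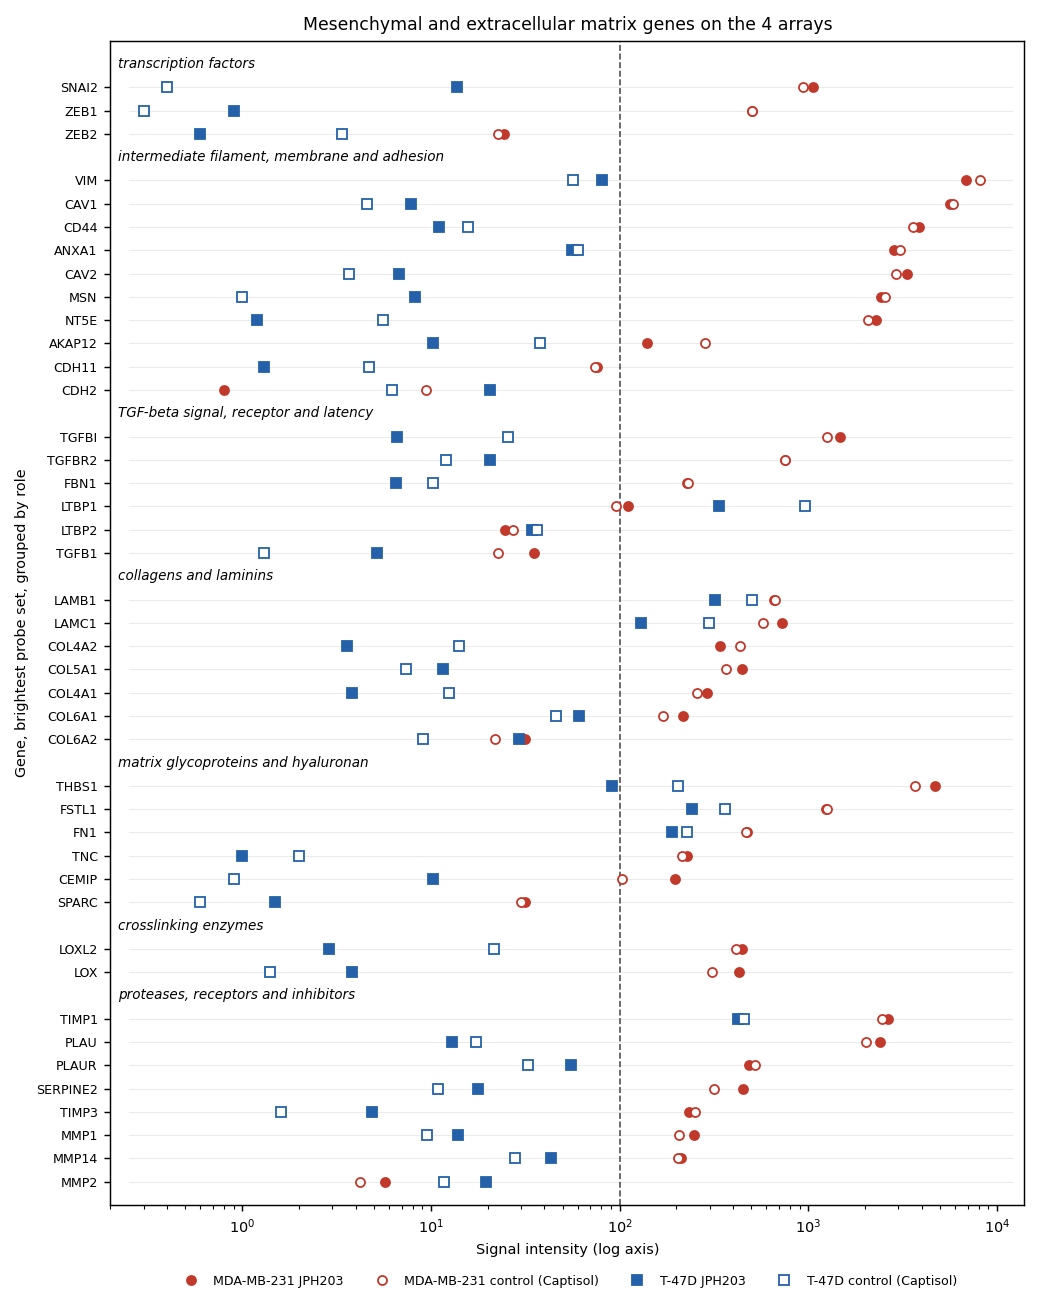
Signal intensity (log axis) of each of the 42 genes, grouped by role, on the MDA-MB-231 arrays (red circles) and the T-47D arrays (blue squares); filled symbols are JPH203 and open symbols the Captisol control, and a dashed line marks the minimum, a signal of 100. Most rows have both circles right of the line and both squares left of it, while the circle pairs lie close together; LTBP1 is the row with both squares right of the line and of both circles.

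The labels of the lines were set against lists of cell type markers, which were also chosen with earlier results of these data known. All 17 measured luminal epithelial markers were on in T-47D cells and were at least 2-fold lower in the MDA-MB-231 control. In MDA-MB-231 cells 7 of them were still on and 9 were off. The brightest there was KRT18, at 3999 with JPH203 and 4551.5 with Captisol. The summed signal of the 17 was 8315.5 with JPH203 and 8787 with Captisol in MDA-MB-231 cells, against 59219 with JPH203 and 59029 with Captisol in T-47D cells. CDH1, the adhesion protein of epithelial cells, had signals of 5.2 with JPH203 and 1.4 with Captisol in MDA-MB-231 cells, against 3449 with JPH203 and 5666 with Captisol in T-47D cells. Of 10 fibroblast markers, 0 reached 100 on the MDA-MB-231 arrays and 1, COL1A1, did on the T-47D arrays, and the 4 leukocyte and 5 endothelial markers measured were below 100 on all arrays. The trimmed mean signal of each array lay between 100.016 and 100.02, with 6717 to 7037 genes at 100 or more per array.

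Between the control arrays, 31 of the 34 genes that reached 100 on one of them or both were 2-fold or more higher in MDA-MB-231 cells, and LTBP1 was 2-fold or more lower. The same calls took 23.5% (higher) and 24.3% (lower) of the 8294 genes tested, which were not chosen with earlier values known, as the set was. The median log2 ratio of MDA-MB-231 over T-47D control was 5.28 over these genes and 0.001 over all genes tested, although signals far below 100 enter the first value and make its size uncertain. For that reason folds below are given against the minimum signal of 100 wherever the T-47D signal was under it, and are lower bounds at that minimum. The poly-A spike-in transcripts had a signal ratio of 0.304 in the MDA-MB-231 control over the T-47D control, and scaling to them left 34 genes higher and 1 lower in MDA-MB-231 cells. With averaged probe sets 19 were higher, and with the second brightest 12.

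Of the 3 transcription factors of the set, which repress epithelial genes, SNAI2 and ZEB1 were on in MDA-MB-231 cells and off in T-47D cells, and ZEB2 was off in both. SNAI2, the zinc finger factor SLUG, had signals of 1066 with JPH203 and 937 with Captisol in MDA-MB-231 cells, against 13.8 with JPH203 and 0.4 with Captisol in T-47D cells. ZEB1, a zinc finger repressor of CDH1, had signals of 504 with JPH203 and 502 with Captisol in MDA-MB-231 cells, against 0.9 with JPH203 and 0.3 with Captisol in T-47D cells. MDA-MB-231 exceeded T-47D in the controls by at least 9.37-fold for SNAI2 and at least 5.02-fold for ZEB1. With JPH203 the ratio to control in MDA-MB-231 cells was 1.14 for SNAI2 and 1.01 for ZEB1, and the 3 probe sets of ZEB1 that were on spanned 0.982 to 1.01. ZEB2, the close relative of ZEB1, had signals of 24.5 with JPH203 and 22.8 with Captisol in MDA-MB-231 cells, against 0.6 with JPH203 and 3.4 with Captisol in T-47D cells. Outside the set, 14 further factors of the transition were measured. In MDA-MB-231 cells 4 of these were on and 10 off, where 34.3% of all genes were on. Those off included SNAI1, at 3.3 with JPH203 and 6.3 with Captisol, and TWIST1, at 5.9 with JPH203 and 7.7 with Captisol. SNAI1 and TWIST1 were named after their values were seen.

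ZEB and SNAI factors bind the E-box CACCTG, and of the 7 ZEB1 starts in RefSeq, 1 has 1 copy of it in the 250 bases before it, 1 has 2 copies and 5 have none. The stretch with 1 copy, which belongs to one of these alternative starts, is shown because ZEB1 itself stood on one side of the split between the lines. It lies at chr10:31318167-31318416 on the plus strand (RefSeq, GRCh38.p14), and the capitals mark the E-box, read here as CAGGTG on the strand of the gene.
ZEB1: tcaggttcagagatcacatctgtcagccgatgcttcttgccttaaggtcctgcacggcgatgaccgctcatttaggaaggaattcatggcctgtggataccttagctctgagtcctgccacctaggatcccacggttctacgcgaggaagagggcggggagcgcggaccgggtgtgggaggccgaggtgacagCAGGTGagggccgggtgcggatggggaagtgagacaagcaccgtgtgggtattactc
RefSeq promoters were matched for 36 of the 42 genes, in 57 windows that can overlap where a gene has several starts. On either strand, CACCTG stood in 5 of these windows (8.77%), in LOX, PLAU and ZEB1, and in 17.5% of all 35116 promoters of the same length. The SMAD letters CAGACA stood in 7 windows (12.3%), against 13.6% of all promoters, and the SP1 letters GGGCGG in 41 windows (71.9%), against 42.6% of all promoters. A match is a run of letters and no measured site.

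Of the 10 genes of filament, membrane and adhesion, 8 were on in MDA-MB-231 cells, and 0 were on in T-47D cells. VIM, the intermediate filament of mesenchymal cells, had signals of 6842 with JPH203 and 8156 with Captisol in MDA-MB-231 cells, against 80.3 with JPH203 and 56.5 with Captisol in T-47D cells. CD44, the hyaluronan receptor, had signals of 3888 with JPH203 and 3599.7 with Captisol in MDA-MB-231 cells, against 11.1 with JPH203 and 15.8 with Captisol in T-47D cells. Both were therefore above 100 in one line and below it in the other, by at least 81.6-fold for VIM and at least 36.0-fold for CD44 in the controls.

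CAV1 and CAV2 encode the caveolins that coat small pits of the plasma membrane, and they are neighbours on chromosome 7 with no protein-coding gene between them. CAV1 had signals of 5651 with JPH203 and 5874.5 with Captisol in MDA-MB-231 cells, against 7.8 with JPH203 and 4.6 with Captisol in T-47D cells. CAV2 had signals of 3359 with JPH203 and 2932 with Captisol in MDA-MB-231 cells, against 6.8 with JPH203 and 3.7 with Captisol in T-47D cells. The neighbours thus shared their on and off states, at least 58.7-fold apart between the controls for CAV1 and 29.3-fold for CAV2. Their JPH203 ratios in MDA-MB-231 cells were 0.962 for CAV1 and 1.15 for CAV2.

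MSN, moesin, which ties actin to the membrane, had signals of 2427 with JPH203 and 2542 with Captisol in MDA-MB-231 cells, against 8.2 with JPH203 and 1.0 with Captisol in T-47D cells. NT5E, the surface nucleotidase CD73, had signals of 2295 with JPH203 and 2068 with Captisol in MDA-MB-231 cells, against 1.2 with JPH203 and 5.6 with Captisol in T-47D cells. ANXA1, a calcium-dependent phospholipid-binding protein, had signals of 2849 with JPH203 and 3063 with Captisol in MDA-MB-231 cells, against 56.1 with JPH203 and 60.4 with Captisol in T-47D cells. These 3 genes were at least 25.4-fold (MSN), 20.7-fold (NT5E) and 30.6-fold (ANXA1) higher in the MDA-MB-231 control. Neither of the mesenchymal cadherins reached the minimum. CDH2, N-cadherin, was off everywhere, with signals of 0.8 with JPH203 and 9.4 with Captisol in MDA-MB-231 cells, against 20.6 with JPH203 and 6.2 with Captisol in T-47D cells. CDH11, the cadherin of osteoblasts and fibroblasts, reached 75.6 with JPH203 and 74.5 with Captisol in MDA-MB-231 cells, against 1.3 with JPH203 and 4.7 with Captisol in T-47D cells, and so stayed below the minimum in both lines.

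Of the 6 genes of TGF-beta signal, receptor and latency, 3 were on in MDA-MB-231 cells and off in T-47D cells. TGFBI, a secreted adhesion protein induced by TGF-beta, had signals of 1476 with JPH203 and 1255 with Captisol in MDA-MB-231 cells, against 6.6 with JPH203 and 25.5 with Captisol in T-47D cells. TGFBR2, the type II receptor that binds the ligand first, had signals of 753 with JPH203 and 756 with Captisol in MDA-MB-231 cells, against 20.7 with JPH203 and 12.0 with Captisol in T-47D cells. FBN1, the microfibril protein to which latent TGF-beta complexes attach, had signals of 229 with JPH203 and 231 with Captisol in MDA-MB-231 cells, against 6.5 with JPH203 and 10.3 with Captisol in T-47D cells. In the MDA-MB-231 control the receptor was at least 7.56-fold and the induced protein at least 12.6-fold higher. Of the ligands, TGFB1 was off on all arrays, with signals of 35.2 with JPH203 and 22.8 with Captisol in MDA-MB-231 cells, against 5.2 with JPH203 and 1.3 with Captisol in T-47D cells. TGFB2, from a list of related genes, had 469 with JPH203 and 348 with Captisol in MDA-MB-231 cells. In T-47D cells it had 40.0 with JPH203 and 55.6 with Captisol. TGFB3, from that list, had 12.8 with JPH203 and 23.3 with Captisol in MDA-MB-231 cells. In T-47D cells it had 337 with JPH203 and 457 with Captisol. TGFB2 and TGFB3 were named after their values were seen. LTBP2, a latency-family protein of microfibrils, was off as well, with signals of 24.8 with JPH203 and 27.1 with Captisol in MDA-MB-231 cells, against 34.4 with JPH203 and 36.6 with Captisol in T-47D cells.

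LTBP1, which tethers latent TGF-beta to the matrix, was the exception to the direction of the whole set. It had signals of 110.9 with JPH203 and 96.2 with Captisol in MDA-MB-231 cells, against 338 with JPH203 and 958 with Captisol in T-47D cells. In the controls it was at least 9.58-fold lower in MDA-MB-231 cells, counted against the minimum of 100. Both of its probe sets are of the _s_at kind, which can match several transcripts, so it drops out where that kind is left out.

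The basement membrane chains showed both patterns. COL4A1 and COL4A2, the chains of the common type IV collagen, were on in MDA-MB-231 cells alone. COL4A1 had signals of 293 with JPH203 and 258 with Captisol in MDA-MB-231 cells, against 3.8 with JPH203 and 12.5 with Captisol in T-47D cells. COL4A2 had signals of 339 with JPH203 and 435 with Captisol in MDA-MB-231 cells, against 3.6 with JPH203 and 14.1 with Captisol in T-47D cells. The pair is read in opposite directions on chromosome 13 with 126 bases between their starts, and these bases are shown because both genes are read out of this one stretch. It lies at chr13:110307158-110307283 (RefSeq, GRCh38.p14) and is printed on the plus strand, the strand of COL4A2, with the single SP1 run GGGCGG in capitals.
COL4A1 to COL4A2: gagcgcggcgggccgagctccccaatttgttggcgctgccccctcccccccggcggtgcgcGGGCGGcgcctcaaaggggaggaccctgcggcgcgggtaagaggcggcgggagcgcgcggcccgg
With JPH203 the ratio in MDA-MB-231 cells was 1.14 for COL4A1 and 0.780 for COL4A2, on opposite sides of 1 and both within the range that held the central 95% of all genes (0.778 to 1.32).

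LAMB1 and LAMC1, the beta and gamma chains shared by many laminin trimers, were on in both lines. LAMB1 had signals of 660.2 with JPH203 and 669.8 with Captisol in MDA-MB-231 cells, against 322 with JPH203 and 502 with Captisol in T-47D cells. LAMC1 had signals of 724 with JPH203 and 575.5 with Captisol in MDA-MB-231 cells, against 130.1 with JPH203 and 297 with Captisol in T-47D cells. The control arrays differed by a log2 ratio of 0.41 for LAMB1 and 0.95 for LAMC1, both higher in MDA-MB-231 cells and both under 2-fold, so neither was called between the controls.

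Of the collagens of interstitial matrix, COL5A1 and COL6A1 were on in MDA-MB-231 cells and off in T-47D cells. COL5A1, which starts and thins collagen fibrils, had signals of 446 with JPH203 and 367 with Captisol in MDA-MB-231 cells, against 11.6 with JPH203 and 7.4 with Captisol in T-47D cells. COL6A1, a chain of the beaded filament collagen VI, had signals of 217 with JPH203 and 171 with Captisol in MDA-MB-231 cells, against 61.3 with JPH203 and 45.9 with Captisol in T-47D cells. COL6A2, its neighbour on chromosome 21 with no protein-coding gene between them, was off on every array, with signals of 31.7 with JPH203 and 22.0 with Captisol in MDA-MB-231 cells, against 29.3 with JPH203 and 9.1 with Captisol in T-47D cells. Unlike the pairs CAV1 with CAV2 and COL4A1 with COL4A2, the neighbours COL6A1 and COL6A2 did not share their state in MDA-MB-231 cells. This difference rests on 1 of the 8 probe sets of COL6A1. The others gave 18.0 or less on both MDA-MB-231 arrays, no higher than COL6A2 with Captisol.

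Among the matrix glycoproteins, FSTL1 and FN1 were on in both lines, and THBS1 was on in MDA-MB-231 cells and on 1 array of T-47D cells. THBS1, thrombospondin, an adhesive glycoprotein that can activate latent TGF-beta, had signals of 4692 with JPH203 and 3700.0 with Captisol in MDA-MB-231 cells, against 91.4 with JPH203 and 203.3 with Captisol in T-47D cells. FSTL1, a secreted follistatin-like glycoprotein, had signals of 1242 with JPH203 and 1256 with Captisol in MDA-MB-231 cells, against 242 with JPH203 and 362 with Captisol in T-47D cells. FN1, fibronectin, had signals of 472.5 with JPH203 and 466 with Captisol in MDA-MB-231 cells, against 190.5 with JPH203 and 229 with Captisol in T-47D cells. The control log2 ratio of MDA-MB-231 over T-47D was 4.19 for THBS1, 1.79 for FSTL1 and 1.02 for FN1, so FN1 was just past 2-fold on its brightest probe set. Another of its probe sets was past 2-fold too, at 414 in the MDA-MB-231 control against 199 in that of T-47D. The others that were on stayed under it, at 457 against 273 and at 347 against 267.

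TNC, tenascin-C, a glycoprotein of remodelling tissue, had signals of 227 with JPH203 and 213 with Captisol in MDA-MB-231 cells, against 1.0 with JPH203 and 2.0 with Captisol in T-47D cells. SPARC, a collagen-binding glycoprotein of mesenchymal cells, was off throughout, with signals of 31.4 with JPH203 and 30.0 with Captisol in MDA-MB-231 cells, against 1.5 with JPH203 and 0.6 with Captisol in T-47D cells. SPARC, CDH2 and TGFB1, all well-known genes of mesenchymal cells, were thus under the minimum in the line in which VIM, ZEB1 and CAV1 were on.

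Both crosslinking enzymes were on in MDA-MB-231 cells and off in T-47D cells. LOX, the lysyl oxidase that crosslinks collagen and elastin, had signals of 431 with JPH203 and 307.5 with Captisol in MDA-MB-231 cells, against 3.8 with JPH203 and 1.4 with Captisol in T-47D cells. LOXL2, its relative, had signals of 444 with JPH203 and 414 with Captisol in MDA-MB-231 cells, against 2.9 with JPH203 and 21.7 with Captisol in T-47D cells.

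The genes of pericellular proteolysis were on in MDA-MB-231 cells in 7 of 8 cases. PLAU, the urokinase that turns plasminogen into plasmin, had signals of 2414.5 with JPH203 and 2018 with Captisol in MDA-MB-231 cells, against 13 with JPH203 and 17.3 with Captisol in T-47D cells. PLAUR, the receptor that holds urokinase at the cell surface, had signals of 488 with JPH203 and 524 with Captisol in MDA-MB-231 cells, against 55.4 with JPH203 and 32.6 with Captisol in T-47D cells. SERPINE2, a serpin that inhibits thrombin and urokinase, had signals of 449 with JPH203 and 315 with Captisol in MDA-MB-231 cells, against 17.7 with JPH203 and 10.9 with Captisol in T-47D cells. Protease, receptor and inhibitor were thus on together in one line and off together in the other, at least 20.2-fold apart between the controls for PLAU and 5.24-fold for PLAUR.

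The AP-1 letters TGANTCA, on either strand, stood in 2 of the 57 windows (3.51%), in PLAUR and CDH2, and in 6.57% of all promoters. The PLAUR stretch is shown since PLAUR was the one of this pair that was on. It is the 250 bases before a RefSeq start of the gene, at chr19:43670170-43670419 on the minus strand (GRCh38.p14), with the AP-1 letters in capitals.
PLAUR: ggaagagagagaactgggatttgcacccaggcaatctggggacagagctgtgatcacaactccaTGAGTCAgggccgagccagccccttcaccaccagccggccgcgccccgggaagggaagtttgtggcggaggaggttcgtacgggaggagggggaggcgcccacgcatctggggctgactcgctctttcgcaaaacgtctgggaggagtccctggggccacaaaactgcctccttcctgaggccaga
Its 3 probe sets that were on in MDA-MB-231 cells had JPH203 ratios of 0.783 to 1.06.

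The metalloproteinases split. MMP1, the interstitial collagenase, had signals of 247 with JPH203 and 207 with Captisol in MDA-MB-231 cells, against 14.0 with JPH203 and 9.5 with Captisol in T-47D cells. MMP14, the membrane-bound activator of MMP2, had signals of 213 with JPH203 and 204 with Captisol in MDA-MB-231 cells, against 43.5 with JPH203 and 28.0 with Captisol in T-47D cells. MMP2, a gelatinase, was off on every array, with signals of 5.7 with JPH203 and 4.2 with Captisol in MDA-MB-231 cells, against 19.7 with JPH203 and 11.8 with Captisol in T-47D cells. The transcript of the activator was thus on without that of MMP2 in MDA-MB-231 cells, and protein was not measured. This rests on the brightest MMP14 probe set, as the others gave 88.1 or less with Captisol in this line. Of their tissue inhibitors, TIMP1 was on in both lines, with signals of 2662 with JPH203 and 2464 with Captisol in MDA-MB-231 cells, against 424 with JPH203 and 454 with Captisol in T-47D cells, a log2 difference of 2.44 between the controls. TIMP3, the inhibitor that binds to the matrix itself, had signals of 234 with JPH203 and 252.5 with Captisol in MDA-MB-231 cells, against 4.9 with JPH203 and 1.6 with Captisol in T-47D cells.

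With JPH203 in MDA-MB-231 cells, 1 gene of the set changed by 2-fold. Of the 33 genes that were on, 0 rose past this threshold and 1, AKAP12, fell, where those calls took 0.0885% (6 genes, higher) and 0.0148% (1 gene, lower) of the 6777 genes that were on. The 1 gene called lower over all genes was AKAP12 itself. The set, AKAP12 and CEMIP included, was chosen with earlier results of these data known. The JPH203 shares and ranks given here and below therefore describe it and do not test it. In all, 21 of the 33 lay above their control and 12, AKAP12 included, below it, where 48.3% of all genes lay above. After scaling to the spike-ins, which moved all genes, 29 of 35 lay above and 6 below, where 69.9% of all genes lay above. The median log2 ratio of the 33 was 0.10, and that of all genes -0.007. Over all genes the log2 ratio had an SD of 0.197.

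AKAP12 encodes a scaffold that anchors protein kinase A and C at the membrane. It had signals of 139.9 with JPH203 and 284 with Captisol in MDA-MB-231 cells, against 10.2 with JPH203 and 38.0 with Captisol in T-47D cells. It fell to a ratio of 0.493, the lowest of the 6777 genes. In this line 1 of its 5 probe sets was on, and the next brightest had signals of 28.6 with JPH203 and 39.5 with Captisol, a ratio of 0.724 below the minimum. The call was lost with a pseudocount of 16 (ratio 0.520), after scaling to the spike-ins (0.526), at a minimum of 200 (where the ratio stays at 0.493), and with any other choice of probe set that was tried.

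CEMIP, a protein that binds hyaluronan and drives its breakdown, had the highest ratio of the set. Its signals were 197 with JPH203 and 103.4 with Captisol in MDA-MB-231 cells, against 10.2 with JPH203 and 0.9 with Captisol in T-47D cells. The ratio of 1.90 was the seventh highest of the 6777 genes and lay under the 2-fold threshold, with the control signal just above 100. The study, which names the gene KIAA1199, lists it among the genes past 2-fold with JPH203 in MDA-MB-231 cells. The reason for this difference was not tested. After scaling to the spike-ins the ratio was 2.03 and past the threshold, and the other probe set of the gene had signals of 0.9 with JPH203 and 1.0 with Captisol.

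The next ratios belonged to SERPINE2 at 1.42 and LOX at 1.40, ranks 70 and 86 from the highest. With CEMIP, these were the genes of the set above the central 95% of all genes, which ended at 1.32. The second probe set of LOX was on too and had signals of 223 with JPH203 and 172 with Captisol, a ratio of 1.29. The other probe set of SERPINE2 was far below the minimum. COL6A1 and THBS1 followed, both at 1.27, and LAMC1 at 1.26. The value for COL6A1 rests on the 1 of its 8 probe sets that was on. For THBS1 the 4 probe sets that were on disagreed on direction, with ratios of 0.890 to 1.27.

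At the other end, after AKAP12, stood COL4A2 at 0.780, VIM at 0.839, TIMP3 at 0.926 and ANXA1 at 0.930. COL4A2 was the 175th lowest gene and VIM the 476th lowest. TIMP3 had a second probe set on the other side of 1, at 1.03. The rest of the genes on in this line had ratios between those of PLAUR, 0.931, and LAMC1, 1.26.

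**Figure D2:**
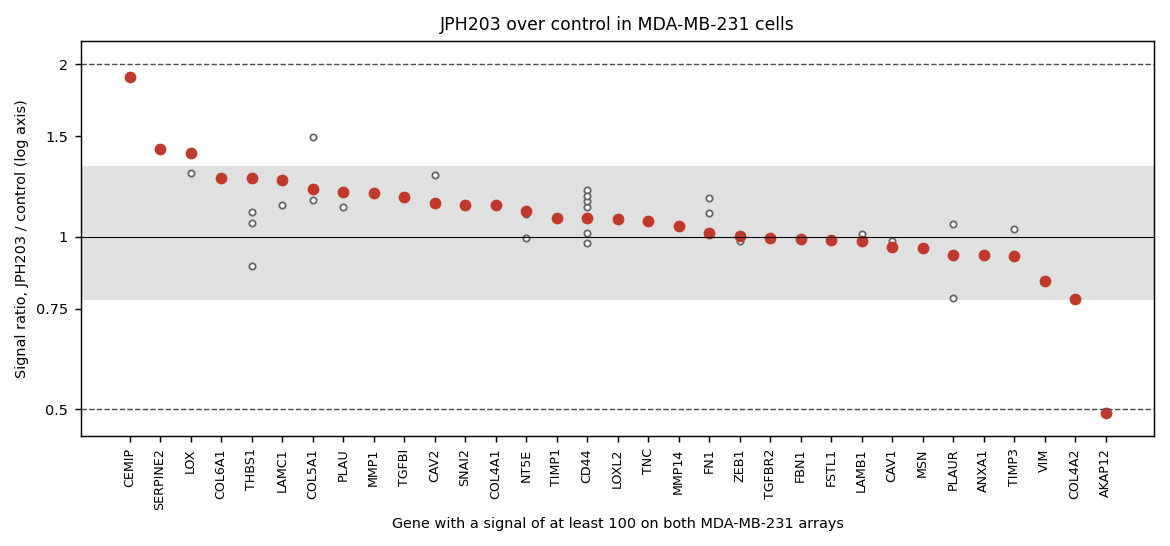
Ratio of the JPH203 signal to the control signal (log axis) in MDA-MB-231 cells for the 33 genes on in that line, in order; red points are the brightest probe set, small open points other probe sets of the same gene that were on, the grey band the central 95% of all genes on and the dashed lines the 2-fold thresholds. CEMIP, SERPINE2 and LOX lie above the band and AKAP12 below it and below the lower threshold, and the open points of THBS1, PLAUR and CD44 fall on both sides of 1.

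By role, the median log2 ratio in MDA-MB-231 cells was 0.30 for the 2 crosslinking enzymes, 0.23 for the 6 collagens and laminins that were on, 0.11 for the 7 protease genes, 0.10 for the 2 transcription factors and 0.09 for the 5 glycoproteins. It was -0.005 for the 3 TGF-beta genes and -0.06 for the 8 genes of filament, membrane and adhesion. Each rests on few genes. Probe sets of one gene give a measure of how far single ratios can be read. For the 14 genes with at least 2 probe sets on, these ratios differed by a median of 1.12-fold, as they did over all 2388 such genes, and 7 of the 14 had probe sets on both sides of 1. In 6 genes, CAV2, COL5A1, FN1, LAMC1, LOX and PLAU, every probe set that was on lay above 1, and in CAV1 every one lay below, at 0.962 and 0.982.

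In T-47D cells 6 genes of the set could be followed, and all 6 lay below their control with JPH203, where 51.7% of all genes did. Those that could be followed lay below control under each scaling that was tried, although after scaling to the spike-ins 87.1% of all genes did too. At a minimum of 50, 8 of 9 lay below control and VIM above it, at a ratio of 1.42. Of the 6, 2 fell past 2-fold and 0 rose, where 2.42% (155 genes, lower) and 2.23% (143 genes, higher) of the 6416 genes on in the line were called. LTBP1 fell to a signal of 338 with JPH203, against 958 with Captisol, a ratio of 0.353 and the tenth lowest of the line. LAMC1 fell to 130.1 with JPH203, against 297 with Captisol, a ratio of 0.438. The second probe set of LTBP1 gave 110.3 with JPH203 and 235.5 with Captisol, a ratio of 0.468, and that of LAMC1 gave 89.8 with JPH203 and 162.6 with Captisol, a ratio of 0.552 with the JPH203 signal under the minimum. LAMC1 was also not called at a minimum of 200, where its ratio stays at 0.438, or after scaling to the spike-ins, where its ratio was 0.282, in both cases because a signal fell under the minimum. At 3-fold neither gene was called.

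The other genes did not pass the threshold. LAMB1, the partner chain of LAMC1, had a ratio of 0.642, and its second probe set gave 125.0 with JPH203 and 232 with Captisol, a ratio of 0.538. FSTL1 had a ratio of 0.669, FN1 of 0.832 and TIMP1 of 0.933. The 4 probe sets of FN1 that were on ranged from 0.552 to 0.896. THBS1 had a ratio of 0.45 but was not called, because its JPH203 signal of 91.4 was below the minimum. All probe sets that were on for FN1, LAMB1 and LTBP1, the genes with more than 1 of them, lay below 1.

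**Figure D3:**
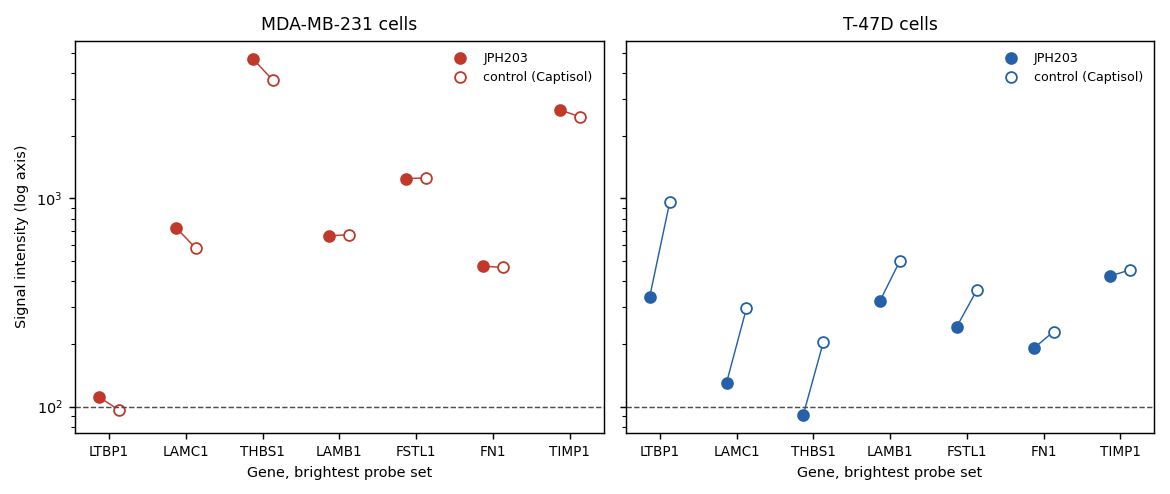
Signal intensity (log axis) of the 7 genes that reached 100 on a T-47D array, in MDA-MB-231 cells (left panel) and in those of T-47D (right panel); filled circles are JPH203, open circles the Captisol control, lines join the arrays of a line and the dashed line is the minimum of 100. In T-47D cells every filled circle lies below its open circle, with LTBP1, LAMC1 and THBS1 furthest apart, and in MDA-MB-231 cells the circles lie close together.

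The median log2 ratio of the 6 genes in T-47D cells was -0.61, beside -0.02 for all genes, while the ratios of all genes spread more widely in T-47D cells (SD of log2 0.513, central 95% from 0.503 to 1.97) than in MDA-MB-231 cells. Other measures moved with JPH203 in the T-47D arrays. As a sign of RNA quality, ACTB had a 3-prime to 5-prime signal ratio of 1.44 with JPH203 and 1.45 with Captisol in MDA-MB-231 cells, against 1.72 with JPH203 and 1.39 with Captisol in T-47D cells. For GAPDH the same ratio was 1.01 with JPH203 and 0.987 with Captisol in MDA-MB-231 cells. In T-47D cells it was 0.867 with JPH203 and 0.940 with Captisol, so ACTB and GAPDH moved in opposite directions there. The spike-in transcripts had a JPH203 over control ratio of 0.937 in MDA-MB-231 cells, and the same ratio was 1.55 in T-47D cells. The genes called lower in T-47D cells had a median length of 82.5 kb and those called higher one of 18.9 kb, against 27.0 kb for all genes on, and the 6 genes of the set had a median length of 77.3 kb, from TIMP1 at 4.35 kb to LTBP1 at 453 kb. The part of these in the result was not tested.

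For LAMC1 the direction differed between the lines, with a ratio of 1.26 in MDA-MB-231 cells, while the ratio was 0.438 in T-47D cells. The difference was not tested. The MDA-MB-231 control signal of LTBP1, 96.2, was below the minimum, so its ratio there was not read.

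Around the 42 genes, 10 lists of related genes were read in the same way, with 198 further genes of which 186 had a probe set of their own. There were 72 of these on in MDA-MB-231 cells, where 34.3% of all genes were on. In T-47D cells 56 were on, where 32.4% of all genes were. A state of on in MDA-MB-231 cells and off in T-47D cells was found for 23 of the 186, and the opposite state for 12. Of all genes, 5.4% had the first state and 4.98% the opposite one. Between the control arrays 34 of 89 tested genes were higher and 25 lower by 2-fold or more in MDA-MB-231 cells, with a median log2 ratio of 0.40, where 23.5% of all genes were higher and 24.3% lower, beside 31 higher and 1 lower of 34 in the set itself, which had been chosen with earlier values known.

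The matrix of T-47D cells had members of its own. Among other collagens, 3 were on in MDA-MB-231 cells and off in T-47D cells, COL8A1, COL13A1 and COL18A1, and 3 the reverse, COL1A1, COL4A5 and COL4A6. COL1A1, the alpha 1 chain of type I collagen, had signals of 36.4 with JPH203 and 42.9 with Captisol in MDA-MB-231 cells, against 468 with JPH203 and 656 with Captisol in T-47D cells. MGP, the matrix Gla protein that inhibits calcification, had signals of 0.7 with JPH203 and 0.4 with Captisol in MDA-MB-231 cells, against 16255 with JPH203 and 11800 with Captisol in T-47D cells. These genes and those named in the next sentence were chosen after their values were seen. AXL, a receptor kinase of mesenchymal cancer cells, had signals of 3681 with JPH203 and 3403.5 with Captisol in MDA-MB-231 cells, against 3.9 with JPH203 and 13.5 with Captisol in T-47D cells, and CAVIN3, a caveolar coat protein, had signals of 834 with JPH203 and 778 with Captisol in MDA-MB-231 cells, against 1.2 with JPH203 and 0.4 with Captisol in T-47D cells.

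**Figure D4:**
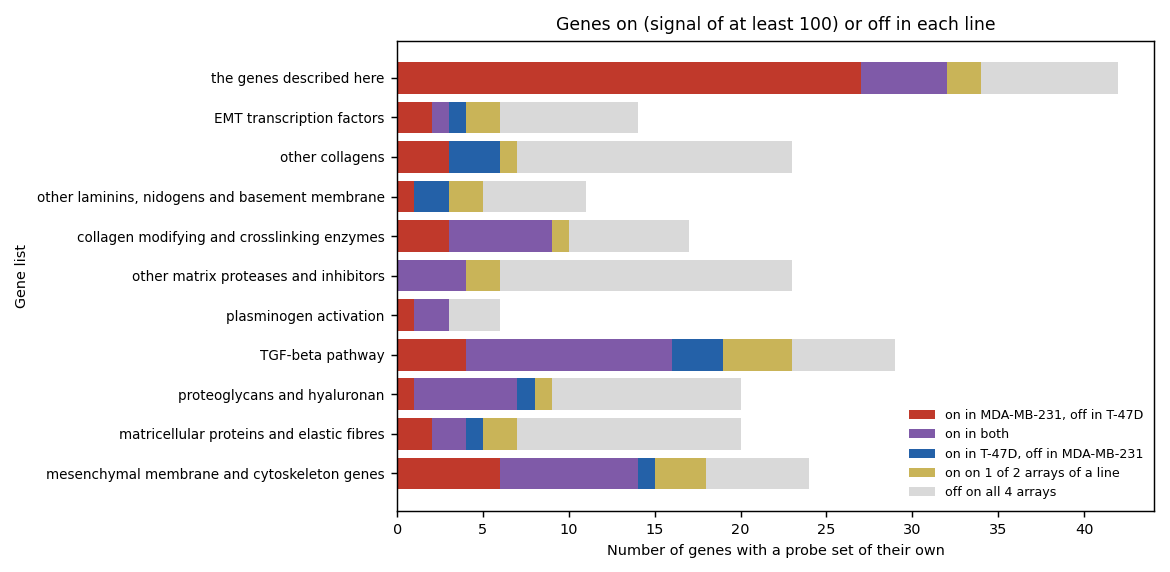
Number of genes with a probe set of their own that were on in MDA-MB-231 cells and off in T-47D cells (red), on in both (purple), on in T-47D cells and off in MDA-MB-231 cells (blue), on on 1 of the 2 arrays of a line (ochre) or off on all arrays (grey), for the 42 genes and each of 10 lists of related genes. Red covers 27 of the 42 genes in the top bar, which has no blue, while other collagens hold 3 red and 3 blue genes and most genes of several lists are grey.

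With JPH203 in MDA-MB-231 cells, 0 of the 72 related genes that were on passed 2-fold in either direction. Over all genes on in the line, 0.0885% rose past it and 0.0148% fell, so this count says little about these genes. The ratios of the 72 ran from 0.756 to 1.79, with a median log2 ratio of 0.06. Of them 47 lay above and 25 below control, where 48.3% of all genes lay above. The highest belonged to LOXL4, a further lysyl oxidase-like enzyme, with signals of 385 with JPH203 and 215 with Captisol in MDA-MB-231 cells. For the TGF-beta pathway, 19 of 29 measured genes were on in MDA-MB-231 cells, 15 were on in T-47D cells, and 0 were called in either line. In T-47D cells 2.23% of all genes on were called higher and 2.42% lower, so 0 among so few genes says little.

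In T-47D cells 2 of the 56 related genes that were on rose past 2-fold and 4 fell, where 2.23% of all genes rose and 2.42% fell, and 41 lay below control, where 51.7% of all genes did. Their median log2 ratio was -0.38. PLOD2, the lysyl hydroxylase that prepares collagen for crosslinks, fell to 269 with JPH203, against 687 with Captisol, a ratio of 0.391. TIMP2, a metalloproteinase inhibitor, fell to 937 with JPH203, against 2156 with Captisol, a ratio of 0.435. COL4A5, a basement membrane collagen, fell to 208 with JPH203, against 471 with Captisol, a ratio of 0.441. ADAM9, a membrane sheddase, fell to 1052 with JPH203, against 2111 with Captisol, a ratio of 0.499. Together with LTBP1 and LAMC1, these were the genes of the set and the 10 related lists that were called lower in the line. Of the 17 luminal markers 12 lay below control, and ESR1, the estrogen receptor, fell to 308 with JPH203, against 735 with Captisol, a ratio of 0.419. The 2 that rose were HMMR, a hyaluronan-binding protein of the mitotic spindle, at 1591 with JPH203 and 409 with Captisol, a ratio of 3.89, and SRGN, the proteoglycan serglycin, at 325 with JPH203 and 121.5 with Captisol, a ratio of 2.68.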

How the data were processed

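Total RNA of 2 cell lines with JPH203 or Captisol was hybridised to 4 arrays, 1 per group. The authors deposited 1 linear signal intensity for each probe set. GCOS is named in the submitters' processing notes, and its version and settings are not given in the sources used here. The trimmed mean of every array was near 100, which global scaling of each array would give, and no detection calls were used.

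The platform annotation gives 1 gene to 41097 of the 54675 probe sets, several genes to 1801, and does not list 11777. By gene identifier, 41043 matched RefSeq (GRCh38.p14) and 0 symbols changed. A gene was read by its brightest probe set naming it alone, and all 42 genes had one. Signals were used as deposited. Ratios are JPH203 over control within a line, and a gene was called at a ratio of 2 or more, or of 0.5 or less, if both arrays gave 100 or more. Between control arrays, 100 on 1 array sufficed. With 1 array per group no test was run, and the number of arrays limits the precision.

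The 42 genes, the marker lists and the 10 lists of related genes were chosen with earlier results of these data known, AKAP12 and CEMIP among them. All 42 were accounted for. From the lists, up to 4 called genes each were to be named, and others are marked as chosen after their values were seen. Promoters are RefSeq sequences of GRCh38.p14, the 250 bases before each start, searched on both strands.

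The alternatives were equal medians, quantile normalization, scaling to the poly-A spike-ins, a pseudocount of 16, removal of a loess trend (span 0.4) from the log2 ratios, minimum signals of 50 and 200, thresholds of 1.5-fold and 3-fold, and 3 other choices of probe set. The work used pandas 2.3.3, numpy 2.4.6, statsmodels 0.14.6, matplotlib 3.10.9 and scipy 1.17.1 under Python 3.11.15.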

Additional observations from a re-analysis of the deposited data

Results flagged for a closer look

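In 5 genes that were on in both lines, a 2-fold call in T-47D cells went with a ratio on the other side of 1 in MDA-MB-231 cells. With 1 array per group these differences were not tested. The log2 ratio of JPH203 over control, MDA-MB-231 minus T-47D, was 1.52 for LAMC1 (0.33 and -1.19), 1.88 for PLOD2 (0.53 and -1.35) and 1.37 for TIMP2 (0.16 and -1.20). It was -2.15 for HMMR (-0.19 and 1.96) and -1.43 for SRGN (-0.01 and 1.42), where the value in MDA-MB-231 cells for SRGN was close to no difference. In each bracket the value in MDA-MB-231 cells stands before that in T-47D cells.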

How the results depend on the processing

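Of 106 alternative values of the main counts and medians, 82 stayed close to the value given and 24 moved, meaning a count by more than 1.5 times or a median by more than 0.1. The count of genes on in MDA-MB-231 cells, 33, was 21 with the mean log2 signal of all probe sets and 14 with the second brightest probe set (38 genes have one). The genes higher in the MDA-MB-231 control, 31, were 19 and 12 under the same choices. Genes on in T-47D cells, 6, were 3 after scaling to the spike-ins and 3 with the second brightest probe set. The gene lower in the MDA-MB-231 control, LTBP1, gave 0 without _x_at and _s_at probe sets, since both of its probe sets are _s_at. With JPH203 in MDA-MB-231 cells, 1 gene was higher, CEMIP, after scaling to the spike-ins and 1 at 1.5-fold, while 0 were lower after spike-in scaling, at a minimum of 200, with the mean, without _x_at and _s_at probe sets, with the second brightest probe set, with a pseudocount of 16 and at 3-fold. In T-47D cells 1 gene was lower at a minimum of 200, without _x_at and _s_at probe sets and with the second brightest probe set, and 0 at 3-fold. The median log2 ratio in T-47D cells was -0.78 with equal medians (all genes -0.17), -1.27 over 3 genes after spike-in scaling (all genes -0.53), -0.90 with the mean over 4 genes (all genes 0.04) and -0.89 over 3 genes with the second brightest probe set (all genes -0.05). The cause of these shifts was not tested. The genes called as reported, AKAP12, LTBP1 and LAMC1, kept their call in 23 of 35 alternative values and lost it in 12, with 0 on the other side of 1. For CEMIP, LOX, SERPINE2, THBS1 and LAMB1, not called as reported, 6 of 59 values were called and 3 lay on the other side of 1. Across the alternatives the ratio ran from 0.227 to 0.468 for LTBP1 and from 0.282 to 0.552 for LAMC1 in T-47D cells, and from 0.9 to 2.03 for CEMIP, from 1.10 to 1.5 for LOX and from 0.754 to 1.52 for SERPINE2 in MDA-MB-231 cells, where the values under 1 came from second probe sets below the minimum. No paired analysis was possible because the labels carry no replicate numbers and each group is 1 array. Signals below 100 give no usable ratio, so with JPH203 9 of the 42 genes could not be followed in MDA-MB-231 cells, and neither could 36 in T-47D cells.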
